A study of Mus musculus with 8 samples.

Results

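Small intestinal crypts of mice lacking both cyclooxygenases in Gli1-expressing mesenchymal cells were compared with Ctrl crypts by bulk RNA-seq, across all listed genes apart from 8 set aside by name, the gastric genes and the mucin that the study itself names: *Anxa10*, *Tff2*, *Gkn1*, *Gkn2*, *Gast*, *Muc5ac*, *Pgc* and *Muc2*. Members were the genes whose value in both Gli1-PtgscKO libraries lay on one side of both Ctrl libraries, here called separated. There were 2417 of them among 11554 genes in the crypt table, of which 1117 were higher and 1300 lower in Gli1-PtgscKO crypts. In Gli1-PtgscKO mice, tamoxifen-activated Gli1-CreERT2 removes both cyclooxygenase genes, *Ptgs1* (COX1) and *Ptgs2* (COX2), so the deletion is in the stroma and not in the sequenced epithelium. Ctrl mice are labelled as wild type and as carrying Gli1-CreERT2 with a Rosa26-tdTomato reporter, while a figure legend of the study describes floxed Ctrl mice without Cre. All mice were C57BL/6, had tamoxifen at 100 mg/kg for 5 days and were taken 1 month later. Their age is not given in the sources used here. Each genotype had 2 crypt libraries, stated to be biological replicates, out of 8 libraries of crypts and villi in the series.

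Cyclooxygenases turn arachidonic acid into the precursor of prostaglandins, of which prostaglandin E2 (PGE2) acts on epithelial cells through EP receptors that raise or lower cyclic AMP. Around the crypt, stromal cells supply PGE2 together with Wnt, R-spondin and BMP signals, and the crypt epithelium holds the stem cells, the dividing progenitors and the secretory Paneth, goblet and enteroendocrine cells. In the intestine, PGE2 is best known for driving chloride and water secretion through the CFTR channel and for its part in epithelial repair.

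Normalized counts, the gene counts divided by a size factor per library, were compared as log2(normalized count + 1), and every fold change below is Gli1-PtgscKO against Ctrl on that scale. The libraries held between 16853017 and 21121714 reads on listed genes, and no listed gene had a mean under 48.4, so weakly expressed genes are outside the comparison. A gene with a group mean under 48.4 is therefore listed only through its other group, and its separation is partly set by that. *Ptgs1* overlapped between groups, with 365 and 164 normalized counts in Ctrl and 178 and 199 in Gli1-PtgscKO, and neither *Ptgs2* nor *Gli1* is in the table, so the deletion could not be checked here. Crypt markers were abundant in every library. *Epcam*, an epithelial adhesion molecule, lay between 24666 and 38539.5, and the stem cell gene *Olfm4* between 61814 and 75262. The summed level of 13 mesenchymal genes was 20069 and 10508 in Ctrl and 12595 and 17154 in Gli1-PtgscKO, and that of 16 immune genes 5888 and 6471 against 4282 and 7722. In neither list did the 2 groups stand apart. In bulk RNA, fewer cells of a type and less RNA per cell cannot be told apart.

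The Gli1-PtgscKO libraries differed in how their distance from the Ctrl mean ran with transcript length. The trend of each Ctrl library alone was not computed. Genes were put into 10 groups of equal size by their longest annotated transcript. In Gli1-PtgscKO 1 the median difference from the Ctrl mean fell from 0.84 in the shortest group (up to 1437 bases) to -0.65 in the longest (from 6809 bases). In Gli1-PtgscKO 2 it ran the other way and over a narrower range, from -0.15 to 0.10. The main groups below are therefore given also after removal of the trend with length (the length correction), and as Gli1-PtgscKO 2 set alone against both Ctrl libraries.

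**Figure D1:**
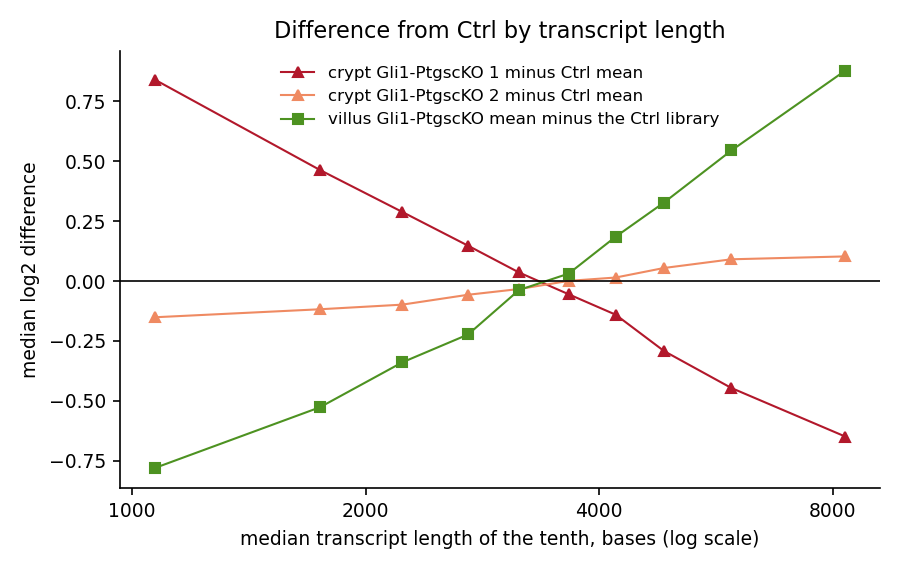
Median log2 difference from Ctrl (y axis) against the median transcript length of each of 10 equal groups of genes (x axis, bases, log scale), for each Gli1-PtgscKO crypt library against the mean of the Ctrl crypts and for the mean of the Gli1-PtgscKO villi against the 1 distinct Ctrl villus library. Gli1-PtgscKO 1 runs from 0.84 to -0.65, Gli1-PtgscKO 2 from -0.15 to 0.10 and the villi from -0.78 to 0.88.

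Over the whole table, including the 8 genes set aside, 9.73% of genes were separated with Gli1-PtgscKO higher and 11.3% with Gli1-PtgscKO lower. After length correction the shares were 13.3% and 15.0% of 11546 genes with an annotated length. Gli1-PtgscKO 2 alone lay above both Ctrl libraries for 30.7% of genes and below both for 35.6%. Every separated gene is counted there by definition, so a count for Gli1-PtgscKO 2 alone is never below the count of separated genes. Scaling by library size alone gave 869 separated higher and 1783 separated lower genes in place of 1124 and 1301. Any group of genes has to be read against these shares. If the libraries were interchangeable, a gene would be separated, whether higher or lower, with a probability of 0.333. The shares above for both Gli1-PtgscKO libraries, higher and lower together, lay below that. Separation of a gene therefore describes the order of its libraries and is not by itself evidence of a genotype effect. Most separated genes were separated by little: the median distance between the nearest Gli1-PtgscKO and Ctrl libraries was 0.11 for higher and 0.08 for lower genes on the log2 scale. It was over 0.5 for 77 higher and 22 lower genes, and over 1 for 13 higher and 0 lower genes. Just inside the rule lay *Cldn3*, with a distance of 2.4e-05 on the higher side, and *Vav2*, with 2.3e-04 on the lower side. Just outside lay *Zfp523* and *Sestd1*, with distances of -2.1e-04 and -1.4e-04.

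The study set its cutoffs, a p under 0.01 and a change of more than 2-fold, on DESeq2 tests of gene counts. Here the same cutoffs were set on the unadjusted p of limma, so the calls can differ from those of the study. Leaving out the 8 genes, all that passed here rose. There were 14 beyond the 8 set aside, and 0 fell; every other gene named below that is said to be higher or lower did not pass. Over all genes, 0.173% passed upward and 0.00866% downward, the single lower gene being *Muc2*. At a Benjamini-Hochberg adjusted p under 0.05 limma called 0 genes, a share of 0%, and 73 had an unadjusted p under 0.05. For a single gene, 2 libraries on each side allow no two-sided exact permutation p smaller than 0.333. Counting the 8 genes, 20 passed upward and 1 downward, so 95.2% of the calls were higher. With scaling by library size alone the split was 18 and 4 (81.8% higher), with *Muc3*, *Muc3a* and *Wdfy1* as the added lower genes, and with length correction 22 and 4 (84.6%). The adjusted p of each gene named in this report was 1.00 in the limma fit.

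Of the 14 genes, 7 are on a list of genes of the stomach epithelium. *Cldn18*, the claudin of gastric tight junctions, lies on chromosome 9 from 99689461 to 99717267 (GRCm38). It had 522 and 725 normalized counts in Ctrl crypts and 1729 and 1368 in Gli1-PtgscKO crypts. The groups did not overlap, with means of 623 ± 143 and 1548 ± 255 (SD, n = 2). Its log2 fold change was 1.32 (SE 0.29) and 1.38 after length correction. *Psca*, a surface antigen anchored in the membrane by a lipid, had 640.0 and 752 in Ctrl and 4024 and 1429 in Gli1-PtgscKO, a log2 fold change of 1.79 (SE 0.47). Here Gli1-PtgscKO 1 was by far the highest library, and Gli1-PtgscKO 2 still lay above both Ctrl libraries. *Cblif*, the intrinsic factor that binds vitamin B12, had 149 and 89.1 in Ctrl and 330.5 and 412 in Gli1-PtgscKO, a log2 fold change of 1.67 (SE 0.39), with Gli1-PtgscKO 2 the higher of the pair.

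The other 4 stomach genes rose by similar amounts. *Vsig2* and *Vsig1* encode membrane proteins of the immunoglobulin family. *Vsig2* had 127 and 145 in Ctrl and 687 and 332 in Gli1-PtgscKO, and *Vsig1* had 339 and 473 and 829.9 and 796, with log2 fold changes of 1.81 (SE 0.42) and 1.02 (SE 0.29). Of all the called genes, *Vsig1* sat closest to the p threshold, and *S100g*, given below, closest to the fold change threshold. *Ctse*, the aspartic protease cathepsin E, had 1227 and 1766 in Ctrl and 3365 and 2857 in Gli1-PtgscKO (log2 fold change 1.07, SE 0.28). *Mucl3*, a mucin-like gene on chromosome 17 from 35635752 to 35643695, had 1671 and 2517 in Ctrl and 4312 and 4446 in Gli1-PtgscKO (log2 fold change 1.09, SE 0.28). Its pair of Gli1-PtgscKO libraries lay close together.

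The remaining 7 genes are not on that list of stomach genes, and whether the stomach expresses them was not tested. *Vill*, a villin-like actin regulator on chromosome 9 from 119052778 to 119071525, had the largest fold change of the 14. It had 36.5 and 79.2 in Ctrl and 299 and 217 in Gli1-PtgscKO, a log2 fold change of 2.22 (SE 0.51). *Psapl1*, a relative of the lysosomal saposin precursor, was the gene with the widest distance between groups. Its values were 144 and 158 in Ctrl and 603 and 438 in Gli1-PtgscKO, at a log2 fold change of 1.76 (SE 0.33). *Aldh3a1*, an aldehyde dehydrogenase, had 51.5 and 86.4 and 410.2 and 204 (log2 fold change 2.10, SE 0.50). The ranges of these 3 genes were clearly apart in both Gli1-PtgscKO libraries, and the length correction left them at 2.26, 1.69 and 1.92.

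*Gsdma2*, of the pore-forming gasdermin family, had 236 and 279 in Ctrl and 1051 and 573 in Gli1-PtgscKO (log2 fold change 1.59, SE 0.36). *Sptssb*, a small subunit of serine palmitoyltransferase at the start of sphingolipid synthesis, had 398 and 661 and 1842 and 1138 (log2 fold change 1.49, SE 0.36). *Car2*, the cytosolic carbonic anhydrase that supplies bicarbonate, had 888 and 1215 and 3037 and 1881 (log2 fold change 1.20, SE 0.32). In these genes Gli1-PtgscKO 1 was again the highest library. *S100g*, the calcium-binding protein calbindin-D9k of calcium absorption, had 424 and 488 and 869 and 958 (log2 fold change 1.00, SE 0.26). It has the shortest transcript of the 14, 480 bases, and was the one of them whose groups overlapped after length correction, at a log2 fold change of 0.41. With length correction, *Cblif*, *Ctse*, *S100g* and *Vsig1* no longer passed the threshold and the other 10 did. Of these 4, *S100g* alone had a much smaller fold change, the others staying at 1.46, 0.96 and 0.97 on the log2 scale. Without Gli1-PtgscKO 1, 9 of the 14 still passed, and *Aldh3a1*, *Car2*, *Ctse*, *Vill* and *Vsig1* did not. Without Gli1-PtgscKO 2, *S100g* alone did not pass. The 14 genes also depended on the Ctrl libraries: without Ctrl 1, 4 passed (*Cblif*, *Psapl1*, *Psca* and *Vsig2*), and without Ctrl 2, 8 passed. When a library is left out, the lone library of its group is assumed to vary like the other group.

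**Figure D2:**
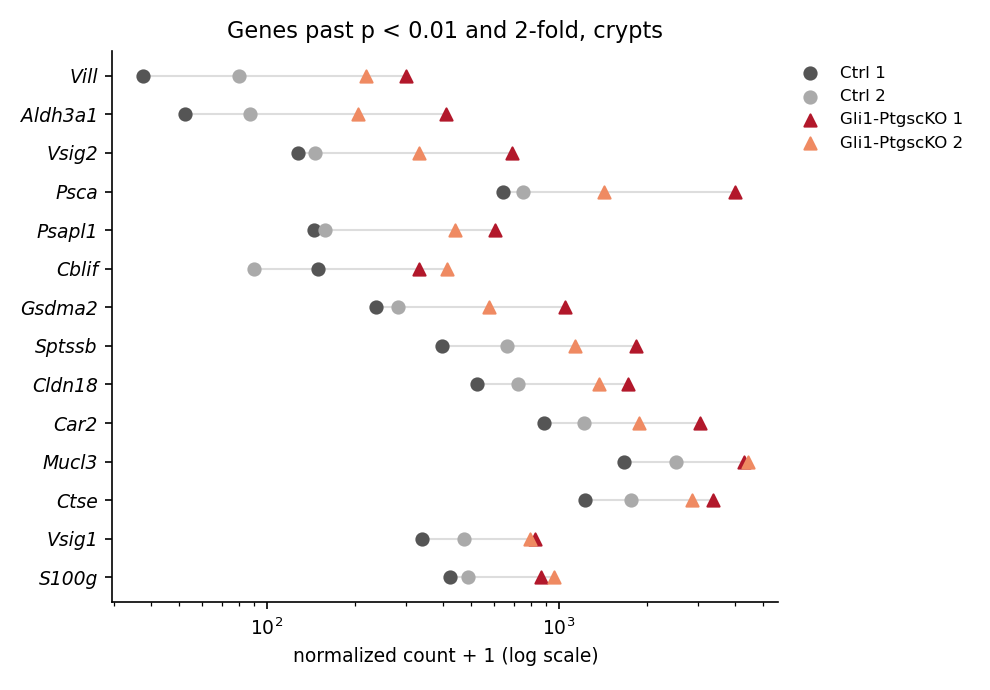
Normalized count plus 1 (x axis, log scale) in each of the 4 crypt libraries for the 14 genes with an unadjusted limma p under 0.01 and a change of more than 2-fold, ordered by fold change. In each gene both Gli1-PtgscKO libraries (triangles) lie to the right of both Ctrl libraries (circles), and Gli1-PtgscKO 1 is the highest library in 11 of the 14.

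The list of stomach epithelial genes, beyond the 8, was the group with the largest share of separated genes. It was compiled with earlier results of these data known, so its count is a description and not independent evidence. Of 21 genes 13 are listed in the crypt table, and 12 of the 13 (92.3%) were higher in both Gli1-PtgscKO libraries, against 9.73% of all genes. The median log2 fold change of the 13 was 1.07, against -0.01 for all genes, and the same 12 of 13 were counted after length correction. The count for Gli1-PtgscKO 2 alone was also 12 of 13. It could not be lower, since every separated gene is counted there by definition, so it is no separate check. The exception was *Muc6*, the mucin of gastric gland mucous cells, with 1562 and 835 in Ctrl and 625 and 1317 in Gli1-PtgscKO. Below the threshold, *Gkn3*, a gastrokine of the stomach, had 1980.0 and 1560.0 in Ctrl and 4954 and 2599 in Gli1-PtgscKO (log2 fold change 1.03, SE 0.35). *Slc9a4*, a sodium/proton exchanger of the stomach, had 89.0 and 117 and 165 and 234 (log2 fold change 0.94). *Aqp5*, a water channel, had 88.1 and 58.5 and 268 and 93.9 (log2 fold change 1.13). *Sult1c2*, a sulfotransferase, and *Capn8*, a calpain protease, had log2 fold changes of 0.91 and 0.53.

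Promoter sequence of members of this group was read from RefSeq on GRCm38.p6, from 250 bases before to 50 bases after the start. The cyclic AMP response element TGACGTCA, the TCF motif ATCAAAG and the TEAD motif ACATTCC were searched on both strands. Promoters were held for 8 of the 14 genes, 1 with the first motif (*Mucl3*), 1 with the second (*Cldn18*) and 0 with the third. Both are shown because they belong to stomach genes that rose together, each written 5′ to 3′ along its gene, which is on the minus strand, with the match in capitals. In *Cldn18* the capitals are the reverse complement of the motif. RefSeq holds more than one start for *Cldn18*, and the stretch shown is at the inner one, within the span of the gene given above.
*Mucl3*, chr17:35643646-35643945: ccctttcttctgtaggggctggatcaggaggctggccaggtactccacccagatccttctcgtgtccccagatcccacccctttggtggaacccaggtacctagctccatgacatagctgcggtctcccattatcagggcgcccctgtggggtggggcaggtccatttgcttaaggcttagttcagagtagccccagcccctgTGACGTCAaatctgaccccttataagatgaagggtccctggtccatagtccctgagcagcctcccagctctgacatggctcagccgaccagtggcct
*Cldn18*, chr9:99710014-99710313: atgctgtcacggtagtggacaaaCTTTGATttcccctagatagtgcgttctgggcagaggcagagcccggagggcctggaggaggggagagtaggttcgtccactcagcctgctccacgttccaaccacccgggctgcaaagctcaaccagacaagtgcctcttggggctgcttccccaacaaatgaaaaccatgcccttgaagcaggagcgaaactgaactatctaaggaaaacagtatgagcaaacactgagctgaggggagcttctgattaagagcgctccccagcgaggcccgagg
The shares among separated genes were close to those over all genes. The cyclic AMP response element was in 3.65% of 9206 genes with a promoter, in 3.38% of 889 separated higher genes and in 3.99% of 1027 separated lower genes. The TCF motif was in 3.11%, 3.38% and 3.12%, and the TEAD motif in 3.47%, 3.15% and 3.12%. A match of letters is not a binding site.

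Aldehyde dehydrogenases, glutathione transferases and the enzymes induced by the transcription factor NRF2 form a further list. Its share was the next largest among lists with 9 or more members in the table. Of 30 listed members 12 (40%) were higher in both Gli1-PtgscKO libraries and 0 lower, and *Aldh3a1* alone passed the threshold. Over the 30 the median log2 fold change was 0.34, with 0.56 in Gli1-PtgscKO 1 and 0.21 in Gli1-PtgscKO 2 against the Ctrl mean. Gli1-PtgscKO 2 alone lay above both Ctrl libraries for 16 of the 30 (53.3%, against 30.7% of all genes) and below for 5. After length correction 11 were separated upward (36.7%, against 13.3%) and 4 downward, so the one-sided count does not hold under that correction.

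Within the list, *Adh7*, the retinol and ethanol dehydrogenase of the upper digestive tract, had 52.5 and 45.9 in Ctrl and 162 and 136 in Gli1-PtgscKO (log2 fold change 1.58, SE 0.45). *Cbr3*, a carbonyl reductase, had 100.3 and 90.9 and 705 and 177 (log2 fold change 1.88, SE 0.64), with Gli1-PtgscKO 1 far above the rest. The glutathione transferase *Gsta1* had 733 and 997 and 3635 and 1351, and *Gsta4*, which clears the lipid aldehyde hydroxynonenal, had 1282 and 1722 and 4992 and 2257 (log2 fold changes 1.37 and 1.18). In these 3 genes Gli1-PtgscKO 1 carried most of the mean and Gli1-PtgscKO 2 was above both Ctrl libraries by less. *Nqo1*, the quinone reductase used as the standard NRF2 target, had 897 and 901 and 1722 and 1217 (log2 fold change 0.69). *Akr1b8*, an aldose reductase, had 344 and 284 and 663 and 432 (log2 fold change 0.78). Other NRF2 targets overlapped between groups: *Gclm* and *Gclc*, the subunits of the enzyme that starts glutathione synthesis, had log2 fold changes of -0.04 and -0.20, *Txnrd1* -0.08 and *Srxn1* 0.02. *Gsta1*, *Gstm1* and *Aldh1a7* have close paralogs that can share reads, so the split between copies is uncertain.

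**Figure D3:**
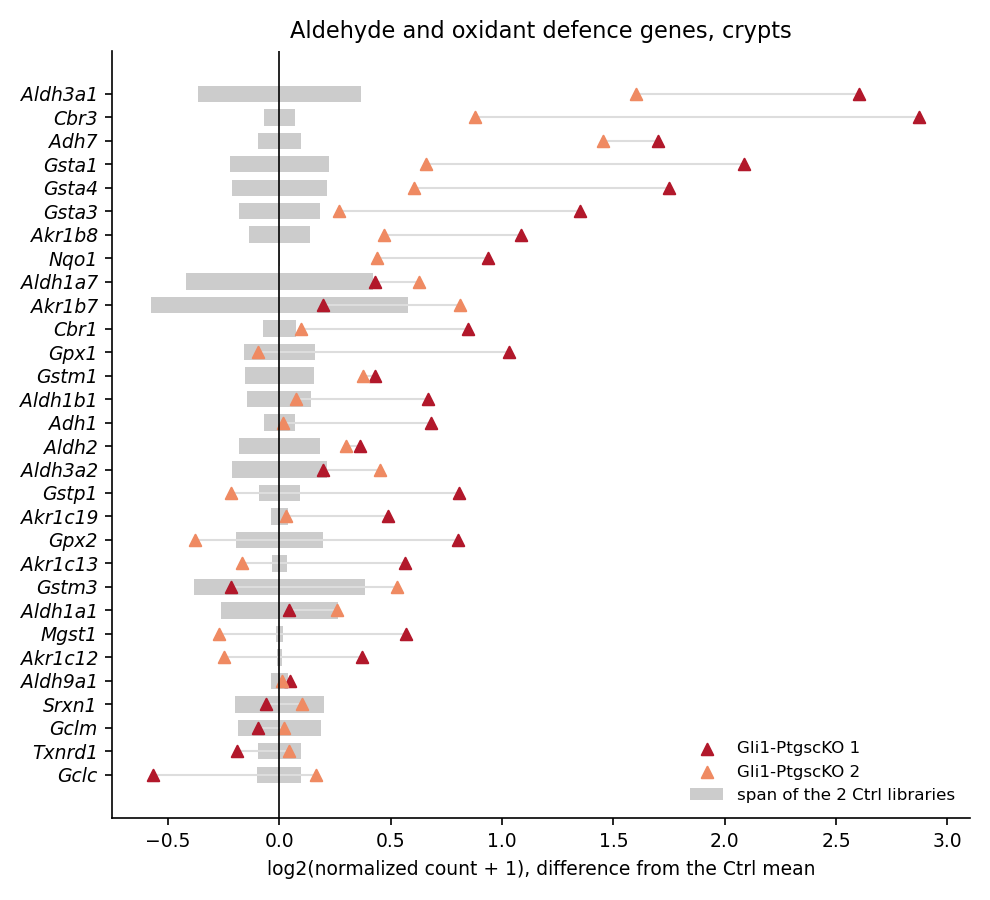
Difference of each Gli1-PtgscKO crypt library (triangles) from the Ctrl mean, in log2(normalized count + 1) (x axis), for the 30 listed aldehyde and oxidant defence genes, with grey bars spanning the 2 Ctrl libraries. Both triangles lie to the right of the bar for 12 genes, and both to its left for 0.

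Among the genes with the widest distance between groups, 10 higher genes were taken by rule, of which *Psapl1*, *Vill*, *Adh7*, *Aldh3a1*, *Vsig2* and *Cblif* are described above. *Clec3b*, the plasminogen-binding protein tetranectin, had 25.3 and 27.9 in Ctrl and 118 and 69.3 in Gli1-PtgscKO (log2 fold change 1.73, SE 0.60). *Syt16*, of the synaptotagmin family, had 26.2 and 38.7 and 105 and 90.5 (log2 fold change 1.58), and *Ccdc88b* had 31.9 and 33.3 and 71.3 and 74.9 (log2 fold change 1.14). *Ly6d*, a lipid-anchored surface protein of stratified epithelium, had 20.6 and 25.2 and 97.6 and 59.2 (log2 fold change 1.69). These 4 genes had low counts, and their groups stayed apart after length correction. Their Ctrl means, from 22.9 to 32.6, lie under 48.4, the lowest mean of any listed gene. They are listed only through their Gli1-PtgscKO counts, so their separation is not support for a difference. By size of fold change the rule added *Slc5a5*, the sodium/iodide symporter, with 67.5 and 181 in Ctrl and 372 and 379 in Gli1-PtgscKO (log2 fold change 1.75, SE 0.50). It also added *Vstm2b*, with 68.4 and 18.9 and 130.1 and 223, *Kremen2*, a co-receptor of the Wnt antagonist Dickkopf, with 52.5 and 11.7 and 193 and 61.5, and *Ccdc28b*, with 32.8 and 12.6 and 110.2 and 45.8. In these 4 genes the Ctrl libraries differed among themselves by more than 2-fold. *Vstm2b*, *Kremen2* and *Ccdc28b* likewise had Ctrl means under 48.4.

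Below Ctrl, membrane mucins and Ceacam genes had the largest share among lists with 9 or more members in the table. Of 12 listed membrane mucin and Ceacam genes 4 (33.3%, against 11.3% of all genes) were lower in both Gli1-PtgscKO libraries, 1 was higher, and 0 passed the threshold. After length correction 5 were lower (41.7%, against 15.0%), and Gli1-PtgscKO 2 alone lay below both Ctrl libraries for 4, or 33.3%, against 35.6% of all genes. *Muc3*, which encodes the main membrane mucin of the enterocyte surface, lies on chromosome 5 from 137134922 to 137149322. It had 10331 and 9097 normalized counts in Ctrl and 5968 and 3584 in Gli1-PtgscKO, with means of 9714 ± 872 and 4776 ± 1686 (SD, n = 2) and a log2 fold change of -1.07 (SE 0.32). Its annotated neighbour *Muc3a*, on chromosome 5 from 137208813 to 137212389, had 1674 and 1024 and 673 and 529 (log2 fold change -1.13, SE 0.32). For both genes Gli1-PtgscKO 2, not Gli1-PtgscKO 1, was the lowest library, and with length correction the log2 fold changes were -1.22 and -1.29, with both then past the threshold. The names mark related mucin sequence, so reads may be split between them, and they are best read as 1 locus.

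*Muc13*, another membrane mucin, had 28162 and 25849.5 in Ctrl and 18239.5 and 23798 in Gli1-PtgscKO (log2 fold change -0.37). *Ceacam2*, a cell adhesion gene near-identical to *Ceacam1* in parts, had 1539.6 and 7051 and 1311 and 1222. Its log2 fold change of -1.38 (SE 0.64) turned on Ctrl 2, which stood more than 4-fold above Ctrl 1. *Ceacam1* overlapped between groups, with 10816 and 5404 and 4332 and 9777. In the other direction *Muc1*, a membrane mucin of stomach and ducts, had 155 and 221 in Ctrl and 397 and 313 in Gli1-PtgscKO (log2 fold change 0.93, SE 0.35). *Muc4* overlapped, with 1496 and 1301 and 507 and 1322.

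The lower genes with the widest distance between groups mostly had low counts. *Dpf3*, *Insc*, *Ccdc9b* and *Gm33091* had Gli1-PtgscKO means under 48.4, the lowest mean of any listed gene, so they are listed only through their Ctrl counts. *Wdfy1*, an endosomal adaptor, had 289 and 421 in Ctrl and 128 and 161 in Gli1-PtgscKO (log2 fold change -1.27, SE 0.36), just short of the threshold. *Gm38910*, a long noncoding RNA gene, had 319 and 319.6 and 110.2 and 181 (log2 fold change -1.17, SE 0.38). *Dpf3*, a subunit of BAF chromatin remodelling complexes, had 85.3 and 67.5 and 23.1 and 34.6 (log2 fold change -1.39, SE 0.60), the widest distance on the lower side, 0.94. For these 3 genes both Gli1-PtgscKO libraries were far below Ctrl, and the distance was 0.73 or more after length correction too. For *Dpf3* that distance is partly set by its listing through Ctrl counts only. *Kcnh7*, a potassium channel, had 129 and 106 in Ctrl and 44.1 and 62.6 in Gli1-PtgscKO. *Vangl2*, a core gene of planar cell polarity, had 119.9 and 105 and 51.4 and 63.7, and *Insc*, which orients the mitotic spindle, 75.0 and 54.9 and 30.4 and 34.6. The log2 fold changes were -1.14, -0.96 and -0.96. *Tmem81*, *Ccdc9b* and the noncoding *Gm33091* had -0.79, -0.80 and -0.88. After length correction the rule also took *Fancb* and *Cenpq*, of the Fanconi anaemia DNA repair complex and the centromere, with -0.69 and -0.72 on that scale, and *Lekr1* and *Gm12166*, with -0.75 and -1.17.

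By size of fold change, 8 of the 10 lower genes were lowest in Gli1-PtgscKO 1 by far, *Dpf3* and *Ceacam2* being the others. *Ear2*, a ribonuclease of eosinophils and macrophages, had 145 and 104 in Ctrl and 0 and 98.3 in Gli1-PtgscKO. *Mef2c*, a transcription factor of muscle and immune cells, had 73.1 and 89.1 and 3.15 and 69.3. *Map1a*, a microtubule-binding protein, had 75.0 and 68.4 and 3.15 and 61.5. In each, Gli1-PtgscKO 2 lay close to the lower Ctrl library, with a distance of 0.07, 0.08 and 0.15 on the log2 scale. *Ric3*, a chaperone of acetylcholine receptors, *Kantr*, *Rab6b*, *Nfasc* and the ciliary transport gene *Ift122* were also lowest in Gli1-PtgscKO 1 by far, but with distances of 0.26 to 0.49 Gli1-PtgscKO 2 lay farther from Ctrl. In these genes Gli1-PtgscKO 1 had between 9.44 and 39.9 normalized counts and Gli1-PtgscKO 2 between 52.5 and 109.5. *Mef2c*, *Map1a*, *Ric3*, *Kantr* and *Rab6b* had Gli1-PtgscKO means under 48.4, the lowest mean of any listed gene, so they are listed only through their Ctrl counts.

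**Figure D4:**
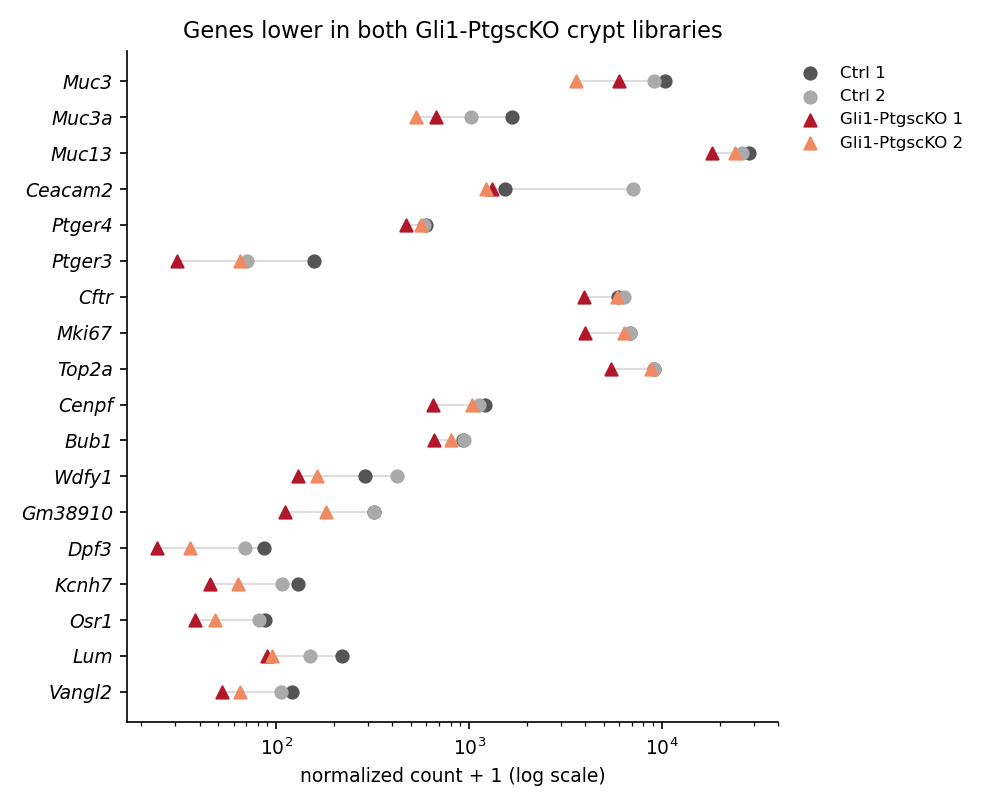
Normalized count plus 1 (x axis, log scale) in each crypt library for 18 genes lower in both Gli1-PtgscKO libraries (triangles) than in both Ctrl libraries (circles). *Muc3* and *Wdfy1* show a clear space between the groups. In *Top2a*, *Mki67* and *Cftr* Gli1-PtgscKO 2 lies beside the Ctrl libraries and Gli1-PtgscKO 1 below them. *Dpf3*, *Osr1* and *Ptger3* have Gli1-PtgscKO means under 48.4, the lowest mean of any listed gene, so they are listed only through their Ctrl counts.

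Genes of the prostaglandin pathway were followed from synthesis to receptor. Of 23 genes 12 are listed, and 3 were higher and 2 lower in both Gli1-PtgscKO libraries (25% and 16.7%, against 9.73% and 11.3% of all genes), with 0 past the threshold. The counts were 4 and 2 after length correction, and Gli1-PtgscKO 2 alone lay above for 5 and below for 2. *Pla2g4a*, the phospholipase that frees arachidonic acid, had 574 and 633 in Ctrl and 677 and 834 in Gli1-PtgscKO (log2 fold change 0.32, SE 0.26). The terminal synthases *Ptges2* and *Ptges3* had log2 fold changes of 0.49 and 0.13, with overlapping groups. *Hpgd*, which breaks PGE2 down, had 1777 and 2617 and 2803 and 2188, and the reductases that act after it, *Ptgr1* and *Ptgr2*, had 1817 and 2090.2 against 3382 and 2166 and 399 and 431 against 517 and 529. *Slco2a1*, the prostaglandin uptake carrier, overlapped, with 506 and 586 and 320.0 and 702.

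Of the EP receptors, *Ptger4* and *Ptger3* are listed and *Ptger1* and *Ptger2* are not. *Ptger4*, whose receptor raises cyclic AMP, had 593 and 585 in Ctrl and 471 and 559.8 in Gli1-PtgscKO, a log2 fold change of -0.20 (SE 0.27), with Gli1-PtgscKO 2 just under the Ctrl pair. *Ptger3*, whose receptor lowers it, had 156 and 69.3 and 29.4 and 63.7 (log2 fold change -1.25, SE 0.66), and there the Ctrl libraries differed by more than 2-fold. Its Gli1-PtgscKO mean, 46.5, lies under 48.4, the lowest mean of any listed gene. *Ptger3* is thus listed only through its Ctrl counts, and its place among the lower prostaglandin genes is partly set by that. Of 15 genes of the cyclic AMP response 1 was higher (*Nr4a2*, log2 fold change 0.20) and 2 lower (*Sik1*, -0.24, and *Crtc2*, -0.25), near the shares over all genes.

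Of 18 listed fluid secretion genes 3 were higher and 1 lower (16.7% and 5.56%, against 9.73% and 11.3%). There were 3 and 3 after length correction, and Gli1-PtgscKO 2 alone lay above for 6 and below for 3. The lower one was *Cftr*, the chloride channel opened by cyclic AMP signalling, with 5928 and 6340.0 in Ctrl and 3946 and 5869 in Gli1-PtgscKO. Its log2 fold change was -0.35 (SE 0.29), and Gli1-PtgscKO 2 lay 0.01 below the nearest Ctrl library on the log2 scale. Its chloride-loading partner *Slc12a2* overlapped, with 19369 and 22676 and 17720.2 and 20724. The water and glycerol channel *Aqp3* had 113 and 155 in Ctrl and 306 and 259 in Gli1-PtgscKO (log2 fold change 1.08, SE 0.36), and the groups stayed apart after length correction. The water channel *Aqp8* had 23.4 and 32.4 and 92.3 and 49.2, and the anion exchanger *Slc4a2* 1482 and 1485 and 1812 and 1676 (log2 fold changes 1.26 and 0.23). Both Ctrl counts of *Aqp8* lie under 48.4, the lowest mean of any listed gene, so it is listed only through its Gli1-PtgscKO counts.

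Stem cell genes showed little. Of 18 listed, 1 was higher (*Sox9*, a factor of stem and Paneth cells, 1527 and 1428 in Ctrl and 1591 and 1820.3 in Gli1-PtgscKO) and 1 lower (*Prom1*, log2 fold change -0.10), below the share over all genes in each direction. *Lgr5*, the R-spondin receptor that marks crypt base stem cells, overlapped, with 1176 and 1528 and 752 and 1296 (log2 fold change -0.44, SE 0.33). *Ascl2* and *Axin2*, targets of Wnt signalling, had log2 fold changes of 0.21 and 0.12 and overlapped.

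Of 24 listed genes of DNA replication and mitosis 7 (29.2%, against 11.3%) were lower in both Gli1-PtgscKO libraries and 1 (*Tyms*) higher. The 7 were all genes of mitosis: *Cenpf*, *Cenpe*, *Bub1*, *Plk1*, *Ccnb1*, *Mki67* and *Top2a*. *Mki67*, the antigen of cycling cells, had 6857 and 6831 in Ctrl and 3974 and 6379.6 in Gli1-PtgscKO (log2 fold change -0.44, SE 0.30). *Top2a*, which untangles chromosomes, had 9114 and 9122 and 5450.3 and 8771 (log2 fold change -0.40), and *Bub1*, of the spindle checkpoint, 927 and 935 and 657 and 803 (log2 fold change -0.36). *Cenpf*, a kinetochore protein, had 1211 and 1118 and 652 and 1033 (log2 fold change -0.50). Gli1-PtgscKO 2 lay only 0.06 to 0.21 below the nearest Ctrl library in these genes, and 0 of the 24 passed the threshold. Gli1-PtgscKO 2 alone lay below both Ctrl libraries for 18 of the 24 (75%, against 35.6% of all genes). The median log2 fold change of the list was -0.02, with 0.07 in Gli1-PtgscKO 1 and -0.17 in Gli1-PtgscKO 2. After length correction 7 were lower (29.2%, against 15.0%), of which *Bub1*, *Ccnb1*, *Mki67* and *Top2a* were among the 7 above, and *Ccnb2*, *Cdc20* and *Rrm2* were not.

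Some genes of the secretory lineages were higher, mostly through Gli1-PtgscKO 1. Of 17 goblet cell genes other than *Muc2* 4 (23.5%, against 9.73%) were higher and 0 lower, with 5 and 1 after length correction, and 0 passed the threshold. *Fut2*, a fucosyltransferase of mucin glycans, had 83.4 and 150.3 in Ctrl and 231 and 209 in Gli1-PtgscKO (log2 fold change 0.97, SE 0.43), and *Agr2*, a folding enzyme for mucins, 4603 and 4811 and 9393 and 5075. The groups of *Agr2* overlapped after length correction, at a log2 fold change of 0.17. *Capn9* and *Tpsg1* had log2 fold changes of 0.55 and 0.89. The list's median was 0.72 in Gli1-PtgscKO 1 and 0.01 in Gli1-PtgscKO 2, which lay above both Ctrl libraries for 5 genes and below for 5 (29.4% each, against 30.7% and 35.6% of all genes). Of 20 enteroendocrine genes 4 (20%, against 9.73%) were higher and 0 lower, with 4 and 1 after length correction and 0 past the threshold, and Gli1-PtgscKO 2 alone lay above for 4 (20%, against 30.7%) and below for 5. *Sst*, the hormone somatostatin, had 386 and 455 in Ctrl and 1063 and 554 in Gli1-PtgscKO (log2 fold change 0.87, SE 0.37), and *Gip*, an incretin, 606 and 541 and 1359.7 and 616. *Rfx6*, a factor of endocrine differentiation, had 73.1 and 84.6 and 110.2 and 139.7 (log2 fold change 0.65), here with Gli1-PtgscKO 2 as the highest library. *Reg4*, a lectin of secretory cells, had 4135 and 5054 and 6648 and 5788, and its groups overlapped after length correction (log2 fold change 0.09).

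Of 16 Paneth cell genes 0 were higher and 1 (*Habp2*) lower (0% and 6.25%, against 9.73% and 11.3% of all genes). Their defensins were highest in Gli1-PtgscKO 1: *Defa24* had 89408 and 76982 in Ctrl and 221569 and 67097 in Gli1-PtgscKO. The median of the list was 0.86 in Gli1-PtgscKO 1 and -0.17 in Gli1-PtgscKO 2, opposite in sign, and Gli1-PtgscKO 2 alone lay below both Ctrl libraries for 9 of 16. After length correction 6 of the 16 were lower (37.5%, against 15.0%) and 0 higher. *Lyz1*, the lysozyme of Paneth granules, overlapped, with 237436 and 199679 and 328486 and 214980.0. Defensin genes are near-identical copies, and *Lyz1* shares sequence with *Lyz2*, so reads may be split among them.

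Of 15 Yap target and regeneration genes 4 were higher and 2 lower (26.7% and 13.3%, against 9.73% and 11.3%), with 4 and 3 after length correction. Gli1-PtgscKO 2 alone lay above for 5 and below for 5, 33.3% each and near the shares of 30.7% and 35.6% over all genes. *S100a6*, a calcium-binding protein, had 379 and 327 in Ctrl and 1624 and 507 in Gli1-PtgscKO (log2 fold change 1.37, SE 0.53), and *Krt7*, a keratin of simple ducts, 1773 and 1882 and 3965 and 2254 (log2 fold change 0.71). *Anxa3*, an annexin, had 191 and 195 and 419 and 255, and *Ly6d* is given above. *Ly6e* and *Amotl2*, a feedback inhibitor of Yap, were lower, at -0.50 and -0.41. The classic fetal-like and regeneration genes *Ly6a*, *Clu* and *Anxa1* overlapped between groups, with log2 fold changes of -0.04, 0.30 and 0.38.

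Among niche signals, 2 of 11 Notch genes were higher and 1 lower (18.2% and 9.09%, against 9.73% and 11.3% of all genes). After length correction the counts were again 2 and 1, and Gli1-PtgscKO 2 alone lay above for 4 and below for 3. The ligand *Jag2* had 66.5 and 89.1 in Ctrl and 152 and 109.5 in Gli1-PtgscKO, the ligand modifier *Lfng* 389.8 and 375 and 533 and 405, and the transcription factor *Rbpj* 1306 and 1154 and 826 and 1084. Of 12 BMP and hedgehog genes 1 was higher (*Ihh*, the epithelial hedgehog ligand, log2 fold change 0.24) and 1 lower (*Smad7*, -0.14), 8.33% each and below the shares over all genes. Of 6 Wnt and R-spondin ligands and antagonists 1 was lower (16.7%, against 11.3%), too few members to tell. It was *Wnt3*, the Paneth cell Wnt ligand, with 347 and 352 and 328 and 321 (log2 fold change -0.11, SE 0.29). None of these 6 genes passed the threshold in limma.

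Genes of other cell types moved in a few cases only. Of 13 mesenchymal genes 1 was lower (7.69%, against 11.3% of all genes) and 0 higher. It was *Lum*, a collagen-binding proteoglycan, with 217 and 148 in Ctrl and 88.1 and 93.9 in Gli1-PtgscKO (log2 fold change -0.97, SE 0.41). *Osr1*, a transcription factor of mesenchyme taken by the distance rule, had 86.2 and 80.1 and 36.7 and 46.9 (log2 fold change -0.98). For both genes the groups stayed apart after length correction, while *Dcn*, *Col1a1*, *Col3a1*, *Pdgfra* and *Vim* overlapped between groups. Both Gli1-PtgscKO counts of *Osr1* lie under 48.4, the lowest mean of any listed gene, so it is listed only through its Ctrl counts. Of 16 immune genes 2 were lower and 2 higher, 12.5% each and near the shares of 11.3% and 9.73% over all genes. The lower ones were the antibody chains *Igkc* (1214 and 868 in Ctrl and 609 and 706 in Gli1-PtgscKO) and *Igha* (1924 and 1261 and 909.6 and 1050.4). The higher ones were the macrophage genes *C1qb* (26.2 and 15.3 and 43.0 and 112) and *Lyz2* (779 and 415 and 1074 and 1595), and these overlapped after length correction. Both Ctrl counts of *C1qb* lie under 48.4, so it is listed only through its Gli1-PtgscKO counts. The pancreatic list held 4 listed genes, of which the elastase *Cela1* (345 and 206 and 970.5 and 511) and *Ctrb1* (85.3 and 46.8 and 93.4 and 139.7) were higher. That is 50%, against 9.73% of all genes, with too few members to tell. Haemoglobin genes overlapped. Of the endothelial and nerve list only *Lyve1* is in the table. The part of these cell types in the results above was not tested.

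The largest gene families followed Gli1-PtgscKO 1. The median difference from the Ctrl mean of 78 cytosolic ribosomal protein genes was 1.19 in Gli1-PtgscKO 1 and -0.13 in Gli1-PtgscKO 2, and that of 78 nuclear respiratory chain genes 1.07 and -0.19. These are genes with short transcripts, at a median of 1100 and 1026 bases. In each family 4 genes were higher and 0 lower, below the share over all genes. The counts turned with the length correction: 27 ribosomal genes (34.6%, against 13.3% of all genes) were then higher and 5 lower, and 15 respiratory chain genes (19.2%) higher and 9 lower. Gli1-PtgscKO 2 alone lay below both Ctrl libraries for 44 ribosomal and 55 respiratory chain genes (56.4% and 70.5%, against 35.6%). Of 11 mitochondrial genome genes 1 was higher (9.09%, against 9.73%) and 0 lower, with medians of -0.87 in Gli1-PtgscKO 1 and 0.46 in Gli1-PtgscKO 2. Of 15 clock genes 3 were lower (20%, against 11.3% of all genes) and 0 higher. These were the repressors *Nr1d1* (1062 and 887 in Ctrl and 668 and 879 in Gli1-PtgscKO) and *Nr1d2* (1502 and 1354 and 1242 and 1298), and *Nfil3* (281 and 248 and 182 and 179.9). After length correction *Nfil3* alone was lower (6.67%, against 15.0%). Gli1-PtgscKO 2 alone lay below both Ctrl libraries for 3 of the 15 clock genes (20%, against 35.6%). Times of collection are not given in the sources used here.

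Interferon and class I genes (3 of 24 higher, 0 lower), cholesterol synthesis genes (3 of 20 and 1), tight junction genes (2 of 15 and 1), epithelial identity genes (2 of 15 and 1), enterocyte genes (2 of 22 and 1), fatty acid oxidation genes (2 of 18 and 2), secretory and ER stress genes (1 of 22 and 2), splicing factors (1 of 30 and 3) and tuft cell genes (1 of 9 and 0) lay near the shares over all genes or held too few members to tell. In Gli1-PtgscKO 2 alone, 13 of the 24 interferon and class I genes and 7 of the 9 tuft cell genes lay above both Ctrl libraries (54.2% and 77.8%, against 30.7%), and 18 of the 30 splicing factors below (60%, against 35.6%). After length correction 0 interferon and class I genes were higher and 1 lower. Of 15 immediate early and heat shock genes and of 7 class II antigen presentation genes, 0 were separated.

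**Figure D5:**
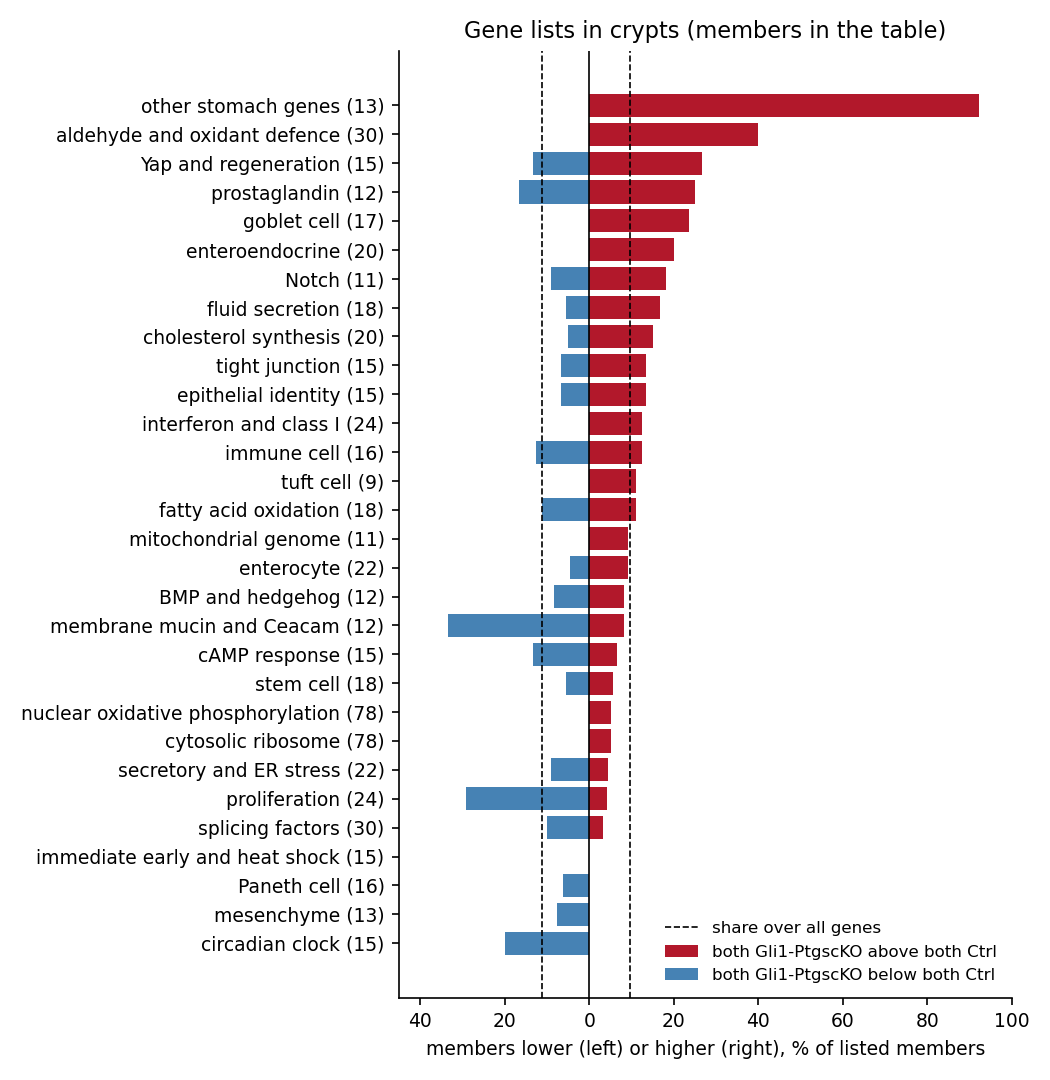
Share of the listed members of each gene list with both Gli1-PtgscKO crypt libraries above (right, red) or below (left, blue) both Ctrl libraries, in percent (x axis), with the number of members in the table in brackets and dashed lines at the shares over all genes, 9.73% and 11.3%. Stomach genes (92.3%) and aldehyde and oxidant defence genes (40%) reach farthest right, and membrane mucin and Ceacam genes (33.3%) and proliferation genes (29.2%) farthest left, among lists with 9 or more members in the table.

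As sets, the separated genes differed from the table in length and level. The median longest transcript was 2787 bases for higher and 3948 for lower genes, against 3400 for all genes. The median of the mean normalized count was 395 for higher, 752 for lower and 659.5 for all genes. Gli1-PtgscKO 1 was farther from the Ctrl mean than Gli1-PtgscKO 2 in 823 of the 1117 higher and 923 of the 1300 lower genes. After length correction 865 of the higher (77.4%) and 904 of the lower (69.5%) remained separated the same way. Protein-coding genes made up 98.0% of higher, 97.1% of lower and 97.9% of all genes. By chromosome, the share of higher genes ran from 6.25% on the X to 13.3% on chromosome 19, and that of lower genes from 7.60% on chromosome 7 to 16.7% on chromosome 18, leaving out the mitochondrial genome and the Y, which hold 11 and 5 genes.

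Villi of the same genotypes were set side by side without a test, because the 2 Ctrl villus columns hold identical values and count as 1 library. The tables were normalized separately. Of the 1117 higher crypt genes 1073 are in the villus table, where both Gli1-PtgscKO villus libraries lay above the Ctrl library for 24.4% and below it for 62.7%. Of the 1300 lower genes 1264 are in it, with 61.7% above and 27.3% below. Over all 11221 crypt genes found there, apart from the 8, the shares were 44.8% and 44.2%. The villus difference ran with transcript length opposite to Gli1-PtgscKO 1 of the crypts, from a median of -0.78 in the shortest to 0.88 in the longest of the 10 length groups. The part of length in these opposite directions was not tested.

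Of the 14 genes that rose in crypts 7 are in the villus table. *Sptssb* had 11.6 normalized counts in the Ctrl villi and 22.2 and 33.8 in Gli1-PtgscKO villi, and *Ctse* had 23.2 and 26.8 and 59.9. Both were higher in both Gli1-PtgscKO villus libraries, at low counts. *Mucl3* was higher too, with 6.95 and 19.1 and 7.73, at counts too low to set an order. *Car2* (1169 and 766 and 1078) was lower in both. *Vsig2* (13.9 and 7.65 and 12.6) was lower in both too, again at counts too low to set an order. *Vill* (15.1 and 8.41 and 24.1) and *S100g* (6018 and 2827 and 8406) lay on both sides of the Ctrl library. Of the lower crypt genes, *Muc3* had 5834 and 8033 and 5096 in villi and *Dpf3* 67.2 and 48.2 and 47.3, while *Cftr*, at 339 and 1055 and 843, was higher in both Gli1-PtgscKO villus libraries.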

How the data were processed

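RNA of small intestinal crypts from 2 Ctrl and 2 Gli1-PtgscKO mice was compared. The authors aligned reads to mm10 with STAR and normalized gene counts with DESeq2, per the labels and the methods. Tool versions, the counter, strandedness and annotation are not given in the sources used here, so overlapping and antisense genes are uncertain. The labels and the methods name different RNA and library kits. The deposited signal is the gene count divided by the size factor of the library. The tables also hold the authors' mean, log2 fold change with its standard error, test statistic, p-value and adjusted p-value, which were not used. The spacing of the values showed 100% of them to be whole multiples of 1 read (tolerance 0.1), which gave the read totals.

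Genes with a mean of at least 1 were tested on log2(value + 1) with the limma-trend method of limma 3.58.1 under R 4.3.3, over the 4 crypt libraries, without a block, and adjusted after Benjamini and Hochberg over the 11554 genes. Calls needed a change of over 1 on the log2 scale in either direction, with an unadjusted p under 0.01. The planned design named a test for normalized values, which these are. The length correction subtracted from each library a lowess curve (span 0.3) on the longest GENCODE M21 transcript of 11546 genes matched by identifier. The test was checked on simulated data. Alternatives were the replicate block, scaling by library size, filters, a pseudocount of 0.1, the length correction and leaving out each library.

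Named genes were those called and separated, the 10 in each direction with the widest distance between groups, with and without length correction, the 10 with the largest fold change among separated genes, the separated list members, and the deleted, receptor and lineage genes; further list members are given for comparison. One gene taken by the rule is not reported here. The members and lists were chosen with earlier results of these data known. Figures were drawn with matplotlib 3.10.9.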

Additional observations from a re-analysis of the deposited data

Results flagged for a closer look

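Some genes lay on opposite sides of Ctrl in the 2 tissues: both Gli1-PtgscKO crypt libraries on one side of both Ctrl crypt libraries, and both Gli1-PtgscKO villus libraries on the other side of the single distinct Ctrl villus library. This difference between tissues was not tested, since there is no spread among Ctrl villi. It held for 17 of the 32 separated genes of both tables that were named by call, distance or fold change or as defining genes, while 6 lay on the same side. Over all separated genes the opposite side held 62.7% of the higher and 61.7% of the lower crypt genes. Values are the villus difference, Gli1-PtgscKO mean minus Ctrl, in log2(normalized count + 1).

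Higher in crypts and lower in villi were *Car2* at -0.36, *Cbr3* at -0.24, *Ccdc28b* at -0.19, *Kremen2* at -0.87, *Ly6d* at -0.71 and *Vsig2* at -0.46. *Vsig2* had 13.9 normalized counts in the Ctrl villi and 7.65 and 12.6 in Gli1-PtgscKO villi, too low to set an order. In crypts, *Ccdc28b*, *Kremen2* and *Ly6d* are listed only through their Gli1-PtgscKO counts.

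Lower in crypts and higher in villi were *Ccdc9b* at 2.22, *Ceacam2* at 0.56, *Cftr* at 1.47, *Fancb* at 2.45, *Ift122* at 0.26, *Muc3a* at 0.63, *Nfasc* at 2.27, *Ptger4* at 0.55, *Ric3* at 4.22, *Tmem81* at 0.067 and *Wdfy1* at 1.65. *Ric3* is listed at 0 in the Ctrl villi, so its value depends on the pseudocount. *Fancb*, *Nfasc* and *Ccdc9b* had 2.32, 4.63 and 5.79 normalized counts in the Ctrl villi, too low to read the size of their differences. In crypts, *Ric3* and *Ccdc9b* are listed only through their Ctrl counts. *Ptger4*, the EP4 receptor gene, had 132 normalized counts in the Ctrl villi and 179.7 and 208 in Gli1-PtgscKO villi, and *Cftr* 339 and 1055 and 843. The villus differences ran with transcript length, from a median of -0.78 in the shortest to 0.88 in the longest of 10 equal groups. Its part in these values was not tested.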

How the results depend on the processing

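Of the 14 genes that rose, 14 kept their call with no filter (20 higher and 1 lower in all, since no gene has a mean under 1) and with a pseudocount of 0.1, and 13 with at least 10 reads in every library (19 and 1). The directions of the genes named by rule held under every alternative run, except *Calr* (-0.022), *Edem1* (0.0071), *Fabp1* (-0.13), *Hnrnpr* (0.36), *Reg1* (-0.18) and *mt-Nd3* (-0.17), separated list members, with length correction, the same values with the block added, *Ptgs1* without Ctrl replicate 1 (0.20, and -0.95 without Ctrl replicate 2) and *Lyz1* without Gli1-PtgscKO replicate 1 (-0.018, and 0.59 without replicate 2). Scaling by library size called 4 genes lower and length correction 4. The replicate block called 63 higher, 15 lower and 34 at an adjusted p under 0.05, and the block with length correction 27, 6 and 0. Same-numbered libraries share only a number: their deviations correlated at 0.25 across genes, with 2 pairs. The block leaves 1 residual degree of freedom, and the variance then comes from the trend over all genes. With the block, *Adh7*, *Cbr3*, *Muc3*, *Muc3a*, *Wdfy1* and 17 other named genes also passed the threshold. Leaving out 1 library gave 15 to 593 higher, 3 to 288 lower and 0 to 1987 at an adjusted p under 0.05, with 2502 to 4827 genes separated higher and 2658 to 4834 lower, as fewer libraries have to be cleared. The highest counts came without Gli1-PtgscKO replicate 2, when replicate 1, the Gli1-PtgscKO library with the wider trend with transcript length, stands for its group. Without replicate 1 there were 23, 8 and 0. Of 38 list medians, 6 changed sign with library size scaling, 6 with length correction and up to 13 with a library left out. The causes were not tested. The planned DESeq2 and edgeR tests on recovered reads were not run, since the table holds too few low values for a separate check of those reads. With 2 libraries a group, small changes are not detectable.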
